A study of Mus musculus with 37 samples.

Results

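The genes described here belong to families of enzymes that place or remove methyl and acetyl groups on histone lysines and methyl groups on DNA. Some members act on other proteins. They were taken by name from the table of RNA-seq counts: the lysine demethylases (Kdm), lysine methyltransferases (Kmt, Setd, Ezh), lysine acetyltransferases (Kat), histone deacetylases (Hdac), sirtuins (Sirt1 to Sirt7), DNA methyltransferases (Dnmt) and methylcytosine dioxygenases (Tet). The names selected 70 of the 23170 genes listed. The rule used names and no measured value, but it was set with earlier results of these data known. They were 18 Kdm, 16 Kmt or Setd, 2 Ezh, 8 Kat, 11 Hdac, 7 sirtuin and 8 Dnmt or Tet genes. One of the last group, Dnmt3aos, is an antisense transcript at the Dnmt3a locus and encodes no enzyme. Further enzymes of the same kinds under other names, such as Dot1l, Ehmt2 or Ep300, were not selected by name and are counted from lists at the end.

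The cells were mouse bone-marrow-derived macrophages put through osteoclastic differentiation, in which macrophages become the multinucleated cells that resorb bone. Total RNA was sequenced from Arid1a KO cells and from WT cells on day 0, day 2 and day 4, with 2 libraries in each of the 6 groups, 12 in all. Arid1a is a subunit of the BAF (SWI/SNF) chromatin remodelling complex, which moves nucleosomes using ATP. The study's title ties Arid1a to the Jun/Fos transcription factors and to Siglec15, a sialic-acid-binding receptor of osteoclasts. The KO and WT cells of every day carry the label of osteoclastic differentiation, day 0 included. Strain, sex, age, the deleted exons and any Cre driver were not given in the sources used here. Nothing in the labels says that the 2 libraries of a group came from separate animals or cultures, so p-values measure the spread between these libraries, which may be technical.

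Histone lysine methylation is placed mostly by SET-domain enzymes and removed by the FAD-dependent Kdm1 enzymes and the JmjC-domain demethylases, each with preferred lysines. Methylation of lysine 4 of histone H3 (H3K4) marks active promoters and enhancers, while methylation of H3K27, placed by Ezh1 or Ezh2 within Polycomb repressive complex 2, marks silenced genes. Acetylation by Kat enzymes accompanies active chromatin and is reversed by zinc-dependent Hdac enzymes and NAD-dependent sirtuins. In the osteoclast lineage, removal of H3K27 methylation by Kdm6b (Jmjd3) and DNA methylation by Dnmt3a are known steps of differentiation, and Hdac3, Hdac7 and Hdac9 are known regulators.

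The libraries held 16282164 to 18608353 counts. Arid1a itself had 94.6 and 104 CPM (CPM is the count scaled to library size, here with edgeR's TMM factors) in KO cells on day 0, against 242 and 197 in WT cells. On day 4 it had 84.7 and 98.0 CPM in KO cells, against 164 and 135 in WT cells, so transcript was lower but not absent in KO libraries. The 13 markers of osteoclasts (Ctsk, Acp5, Mmp9 and others) summed to 5571 and 2512 CPM in KO cells on day 4, against 17080 and 21938 CPM in WT cells. The 2 KO libraries of day 4 stood apart from each other, with 1503 and 94.3 CPM of Ctsk, against 5370 and 7034 CPM in WT cells. The 2 WT libraries of day 0 also stood apart, with sums of 478 and 1344 CPM for cell cycle markers and 206 and 2280 CPM for stromal and osteoblast markers. Genes more than 2-fold apart between the 2 libraries numbered 2149 in KO day 4 and 1985 in WT day 0. In the other groups they numbered 720 to 1524. Markers of T and NK cells and of erythroid cells summed to at most 1.38 CPM in every library, and dendritic cell markers to at most 4.09 CPM. Stromal and osteoblast markers were uneven, with sums of 28.7 to 3434 CPM over the KO libraries and 206 to 4606 CPM over the WT libraries. In bulk RNA, fewer cells of a type and less RNA per cell cannot be told apart.

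Of the 70 genes, 68 passed the filter on low counts and were tested among 12774 genes. Kdm4d had at most 4 counts and Tet1 at most 9 counts in any library, and neither was tested. A gene is called where edgeR's quasi-likelihood test gave a Benjamini-Hochberg adjusted p, over all tested genes, under 0.05. Mean levels of the tested genes over the 12 libraries ran from 0.384 CPM for Dnmt3l, the catalytically inactive partner of Dnmt3a, to 248 CPM for Dnmt3a, with a median of 51.3 CPM.

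**Figure D1:**
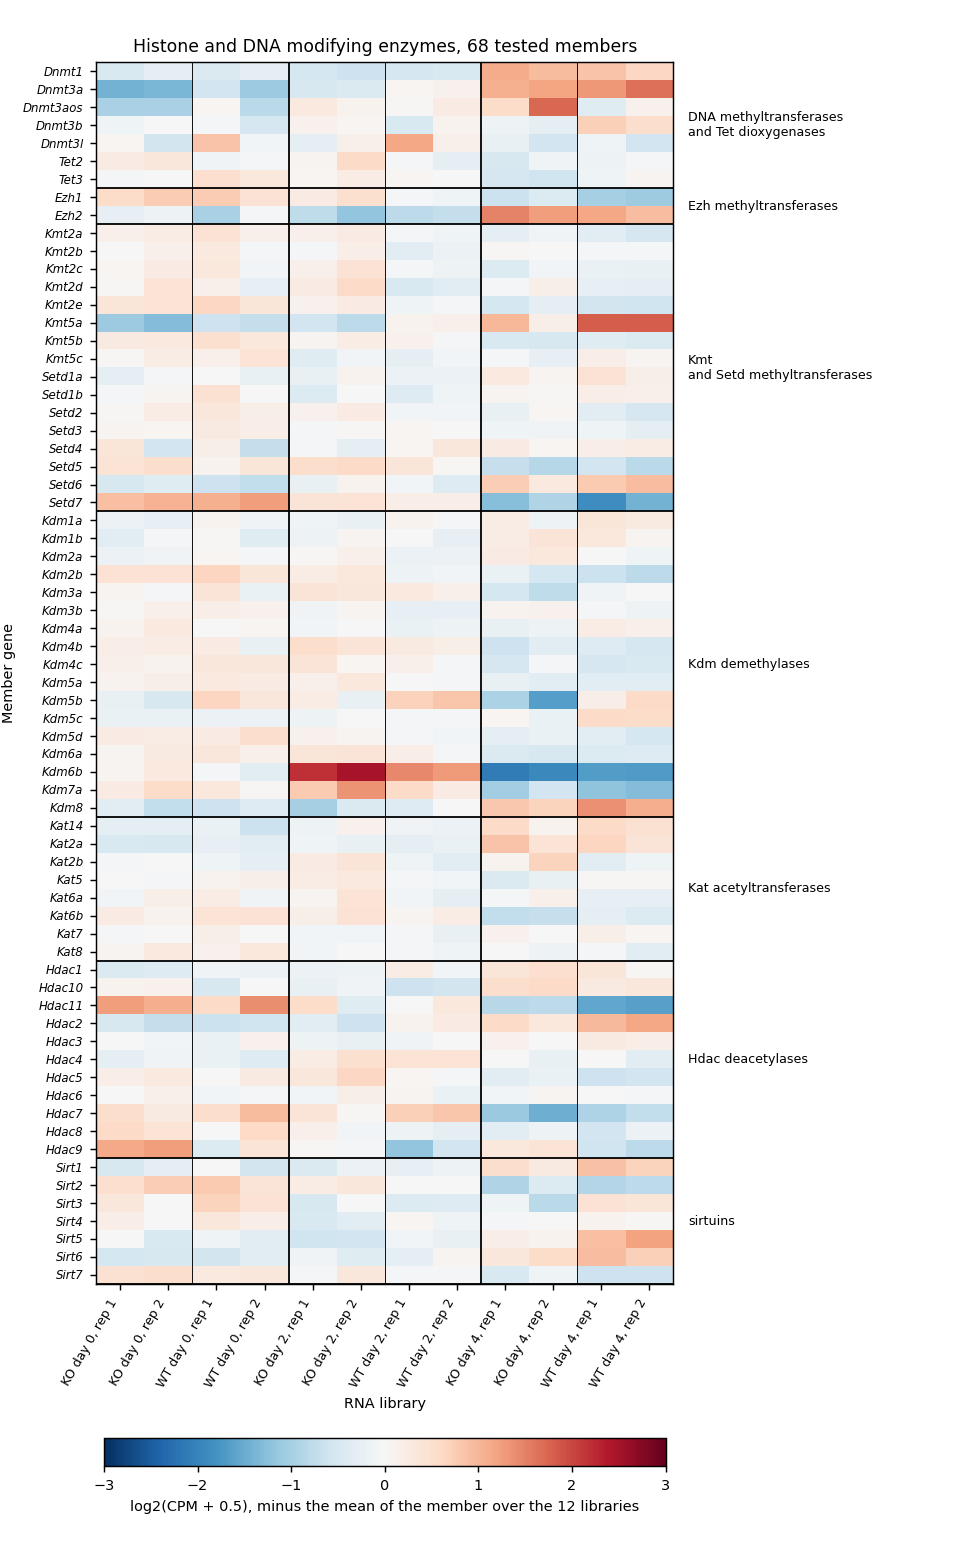
Level of the 68 tested genes (rows, grouped by family) in each of the 12 libraries (columns, KO left of WT on each day). Colour is log2(CPM + 0.5) minus the mean of the gene over the 12 libraries. Red marks a level above and blue a level below that mean. The strongest contrast is Kdm6b, at 305 and 371 CPM in KO cells of day 2 and at 14.9 and 17.0 CPM in KO cells of day 4.

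Levels were compared between genes as TPM, which is corrected for transcript length. On day 0 the most abundant transcript of the set was Sirt2, a mostly cytoplasmic deacetylase, at a mean of 126 TPM in KO cells and 123 TPM in WT cells. On day 2 the highest mean was that of Setd5, a SET-domain protein, at 107 TPM in KO cells and 90.1 TPM in WT cells. Its WT libraries, at 79.4 and 101 TPM, overlapped with those of Sirt2 (86.5 to 89.6 TPM) and of Setd3 (84.3 to 88.4 TPM). On day 4 the order was different. In KO cells Dnmt3a led with 155 and 169 TPM, followed by Kmt5a (Setd8), the H4K20 monomethyltransferase, with 155 and 78.9 TPM, and by Dnmt1, the maintenance DNA methyltransferase, with 119 and 101 TPM. In WT cells Kmt5a led with 270 and 262 TPM, followed by Dnmt3a with 176 and 216 TPM and by the class I deacetylase Hdac2 with 110 and 127 TPM. The values of Kmt5a and Dnmt3a overlapped in the KO libraries of day 4 and did not overlap in the WT libraries.

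Between genotypes, few of these genes were called before day 4, when few of all tested genes were called as well. On day 0 none of 68 was called, with 1.58% of all tested genes called. At an unadjusted p under 0.05 there were 7, with 14.5% of all tested genes, and DESeq2's Wald test called 3, Dnmt3a, Tet3 and Kdm5b, each lower in KO cells. On day 2, 3 genes were called, with 4.52% of all tested genes called (3.09% higher and 1.42% lower): Kdm6b and Kmt2d were higher in KO cells and Hdac2 was lower. Limma on TPM called 2 higher and 3 lower, with the median of all genes shifted by -0.11. On day 4, 13 were called, 4 higher and 9 lower in KO cells, while 25.6% of all tested genes were called (14.5% higher and 11.1% lower), so the share of the set (19.1%) was not above the background. With the 4 libraries of day 4 fitted alone, none of the 68 was called, and adjusted p was then 0.0644 for Kdm5b, 0.0759 for Kdm5c and 0.0880 for Kmt5a. In the fit of all 12 libraries, the calls of Kdm5b, Kmt5a and Kdm5c held with each library left out. The 2 groups did not overlap, with KO higher, for 30 genes on day 2 (background 32.2%) and 24 genes on day 4 (background 32.0%). They did not overlap, with KO lower, for 14 genes on day 2 (background 31.0%) and 26 on day 4 (background 34.5%). On day 0 these counts were 10 with KO higher (background 25.1%) and 19 with KO lower (background 20.5%).

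More of these genes were called between day 4 and an earlier day than between genotypes on any day, as were more of all tested genes. From here a fold change is given as log2 with its standard error. Between day 4 and day 0, 40 genes were called in KO cells, 14 higher and 26 lower on day 4, with 44.6% of all tested genes called (23.3% higher and 21.3% lower). In WT cells 41 were called, 16 higher and 25 lower, with 56.8% of all tested genes called (29.1% higher and 27.6% lower). The median of the 68 genes was -0.19 in KO cells and -0.18 in WT cells, beside -0.06 and -0.04 over all tested genes. On the TPM scale the median of all genes shifted by 0.11 in KO cells and by 0.14 in WT cells, and limma on TPM called 18 higher and 17 lower in KO cells and 20 higher and 20 lower in WT cells. Genes called in both genotypes numbered 32, of which 11 were higher and 21 lower on day 4 in each, and none moved in opposite directions. That is 80.0% of the KO calls and 78.0% of the WT calls, against 82.6% and 64.9% over all tested genes. With each library left out, 25 of the 40 KO calls and 34 of the 41 WT calls held. With the 4 libraries of a comparison fitted alone, 26 of the KO calls and 34 of the WT calls were made again, and the KO calls lost included those of Kdm5a, Kdm8 and Setd6.

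Between day 4 and day 2, 37 genes were called in KO cells, 12 higher and 25 lower, with 42.7% of all tested genes called (22.1% higher and 20.6% lower). In WT cells 39 were called, 17 higher and 22 lower, with 51.8% of all tested genes called (27.4% higher and 24.4% lower). Limma on TPM called 20 higher and 18 lower in KO cells and 20 higher and 16 lower in WT cells, with the median of all genes shifted by 0.13 in KO cells. With the 4 libraries of a comparison fitted alone, 18 of the 37 KO calls and all 39 WT calls were made again. Between day 2 and day 0, only Kdm6b and Dnmt3a were called in KO cells, both higher on day 2, with 4.74% of all tested genes called. The call of Dnmt3a, 0.93 ± 0.18 (edgeR adjusted p = 0.0230), was lost when any of the 4 KO libraries of those days was left out, with adjusted p of 0.0960 to 0.153. In WT cells 14 were called, 5 higher and 9 lower, with 17.3% of all tested genes called (8.06% higher and 9.25% lower). Limma on TPM gave 7 higher and 3 lower, with the median of all genes shifted by 0.10. Of those 14 WT calls, the call of Kdm6b alone held with each library left out. The other 13 were lost when either WT library of day 2 was left out, with adjusted p of 0.0509 to 0.155 for replicate 1 and 0.0644 to 0.227 for replicate 2. Leaving out a WT library of day 0 lost 10 of them (replicate 1; 0.0524 to 0.145) or 7 (replicate 2; 0.0538 to 0.155). Whether the change between day 0 and day 2 differed between genotypes was tested as an interaction, which called none of the 68 (9 at an unadjusted p under 0.05, with 9.52% of all tested genes) and 1 gene of all tested (0.00783%).

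**Figure D2:**
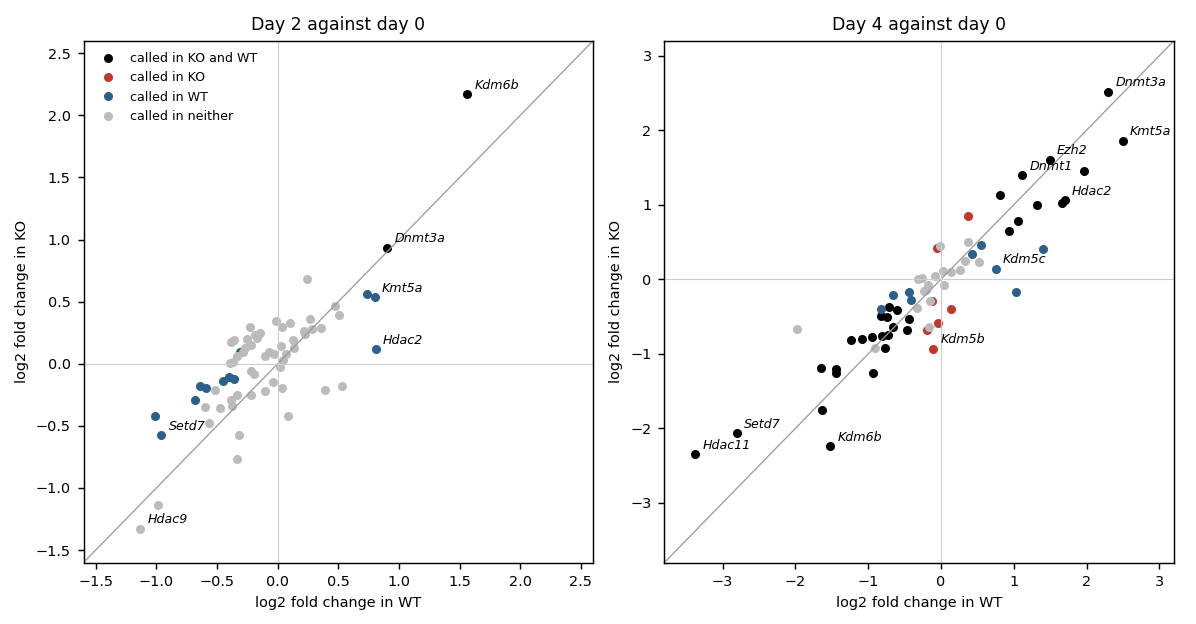
Log2 fold change of 67 tested enzyme genes between days in KO cells (y axis) and WT cells (x axis), day 2 against day 0 on the left and day 4 against day 0 on the right. Colours show in which genotype a gene was called, and the diagonal marks equal change. Kdm6b stands alone at the upper right on day 2, with 2.17 in KO cells and 1.56 in WT cells, and most genes lie near the diagonal on day 4.

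Among the enzymes of H3K27, the demethylase Kdm6b rose on day 2 and was far below its starting level on day 4, in both genotypes. In KO cells Kdm6b had 70.0 and 80.4 CPM on day 0, 305 and 371 CPM on day 2, and 14.9 and 17.0 CPM on day 4. In WT cells it had 63.2 and 52.6 CPM on day 0, 180 and 161 CPM on day 2, and 20.4 and 19.9 CPM on day 4. No library of one day overlapped with any of another day, and on day 2 both KO libraries lay above both WT libraries. Day 2 was above day 0 by 2.17 ± 0.15 in KO cells (edgeR adjusted p = 0.00018) and by 1.56 ± 0.14 in WT cells (edgeR adjusted p = 0.000791). Day 4 fell below day 2 by 4.40 ± 0.16 in KO cells (edgeR adjusted p = 2.72e-06) and by 3.08 ± 0.15 in WT cells (edgeR adjusted p = 6.51e-06). All of these calls held with each library left out.

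On day 2 Kdm6b was higher in KO cells than in WT cells by 0.98 ± 0.14 (edgeR adjusted p = 0.0175). That call was lost on leaving out KO day 2 replicate 2 (adjusted p = 0.135), WT day 2 replicate 1 (0.0913) or WT day 2 replicate 2 (0.148). On day 0 the difference was 0.38 ± 0.14 (edgeR adjusted p = 0.261) and on day 4 it was -0.34 ± 0.15 (edgeR adjusted p = 0.123), and neither passed the test. Kdm7a, a demethylase of H3K9 and H3K27, had 227 and 338 CPM in KO cells on day 2, against 199 and 157 CPM in WT cells. On day 2 edgeR called Kdm7a neither between genotypes nor against day 0 in either genotype. By day 4 it was at 63.5 and 89.0 CPM in KO cells, against 57.2 and 53.6 CPM in WT cells. Day 4 was below day 0 by -1.21 ± 0.24 in KO cells (edgeR adjusted p = 0.00399) and by -1.44 ± 0.24 in WT cells (edgeR adjusted p = 0.00102). Kdm6a (Utx), the X-linked relative of Kdm6b, had 52.0 and 59.9 CPM on day 0, 63.7 and 65.3 CPM on day 2 and 36.3 and 35.2 CPM on day 4 in KO cells. Its day 2 libraries lay above those of day 0 in KO cells, by 0.20 ± 0.12, which was not called (edgeR adjusted p = 0.400). The fall of Kdm6a between day 0 and day 4 was -0.65 ± 0.12 in each genotype (edgeR adjusted p = 0.00329 in KO cells and 0.00195 in WT cells).

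The 2 Polycomb methyltransferases exchanged rank. Ezh2, the paralogue usually linked to dividing cells, had 81.7 and 69.4 CPM in KO cells on day 4, against 24.1 and 25.7 CPM in KO cells on day 0. In WT cells it had 65.0 and 54.7 CPM on day 4, against 14.5 and 28.1 CPM on day 0. Ezh1, the paralogue kept by resting cells, had 43.2 and 51.3 CPM in KO cells on day 4, against 99.9 and 116 CPM in KO cells on day 0, and 33.9 and 32.1 CPM in WT cells on day 4, against 114 and 91.8 CPM on day 0. All day 4 libraries lay outside the range of the day 0 libraries for both genes. The ratio of Ezh2 to Ezh1 in TPM was 3.50 and 2.38 in KO cells of day 4 and 3.15 and 2.7 in WT cells of day 4. In the 8 libraries of day 0 and day 2 it was 0.213 to 0.538.

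Ezh2 rose between day 0 and day 4 by 1.60 ± 0.28 in KO cells (edgeR adjusted p = 0.00217) and by 1.49 ± 0.28 in WT cells (edgeR adjusted p = 0.00191). Ezh1 fell by 1.19 ± 0.15 in KO cells (edgeR adjusted p = 0.000435) and by 1.64 ± 0.15 in WT cells (edgeR adjusted p = 4.48e-05). On day 4 Ezh1 was higher in KO cells than in WT cells by 0.52 ± 0.15 (edgeR adjusted p = 0.0357), a call lost without KO day 4 replicate 2 (adjusted p = 0.190), WT day 4 replicate 1 (0.111) or WT day 4 replicate 2 (0.171). Limma on TPM did not call Ezh1 between genotypes on day 4 (adjusted p = 0.0523). Ezh2 on day 4 differed by 0.34 ± 0.27 and did not pass the test (edgeR adjusted p = 0.410). Cell cycle markers moved with time as Ezh2 did. Of 27 tested, 22 were called higher on day 4 than on day 0 in each genotype, and their summed level was 3876 to 4826 CPM in KO cells and 3461 to 4409 CPM in WT cells on day 4, against 921 to 968 CPM in KO cells and 478 to 1344 CPM in WT cells on day 0. The part of cell division in the rise of Ezh2, Dnmt1 and Kmt5a was not tested.

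**Figure D3:**
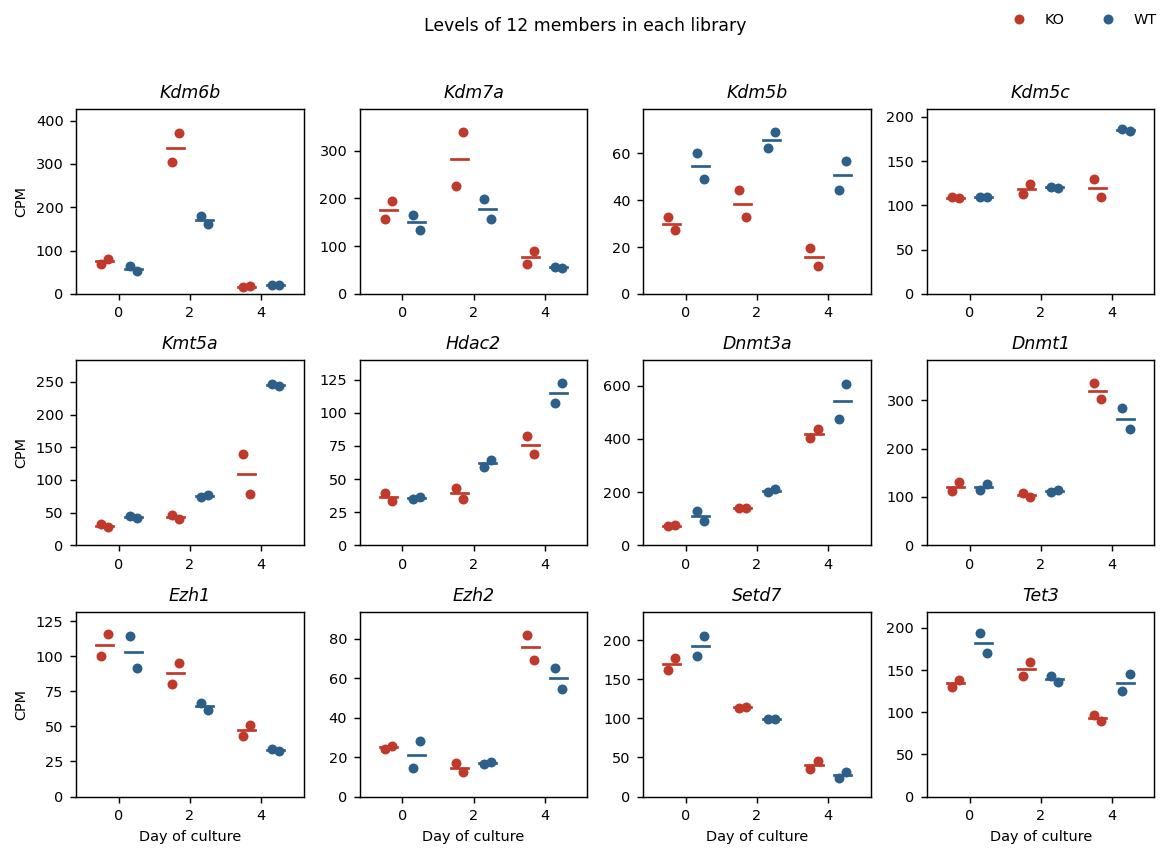
CPM of 12 genes in each library by day, KO in red to the left of WT in blue. Points are libraries and bars are group means (n = 2). Kdm6b has its highest values on day 2, and Ezh2, Dnmt1, Dnmt3a, Kmt5a and Hdac2 have theirs on day 4. Kdm5b is lower in KO than in WT on all 3 days.

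Among the H3K4 demethylases, Kdm5b and Kdm5c were lower in KO cells on day 4, and both calls held with each library left out. Kdm5b (Jarid1b) had 19.6 and 11.9 CPM in KO cells on day 4, against 44.3 and 56.9 CPM in WT cells. On day 2 it had 44.5 and 32.7 CPM in KO cells, against 62.5 and 69.0 CPM in WT cells, and on day 0 it had 32.9 and 27.2 CPM in KO cells, against 60.3 and 49.0 CPM in WT cells. The KO libraries lay below the WT libraries of the same day on each of the 3 days. The difference was -1.68 ± 0.26 on day 4 (edgeR adjusted p = 0.00306), -0.77 ± 0.26 on day 2 (edgeR adjusted p = 0.115) and -0.86 ± 0.26 on day 0 (edgeR adjusted p = 0.158), so edgeR called day 4 alone. DESeq2's Wald test also called day 2 (adjusted p = 0.0430) and day 0 (adjusted p = 0.0334).

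Kdm5c, X-linked, showed another course. It had 109 and 108 CPM in KO cells on day 0, against 110 and 110 CPM in WT cells, and 113 and 124 CPM in KO cells on day 2, against 121 and 119 CPM in WT cells. On day 4 it had 130 and 109 CPM in KO cells, against 186 and 184 CPM in WT cells. Its WT libraries of day 4 stood above all 10 other libraries. The difference between genotypes on day 4 was -0.63 ± 0.10 (edgeR adjusted p = 0.00368). The rise of WT cells between day 0 and day 4 was 0.75 ± 0.10 (edgeR adjusted p = 0.000319), and Kdm5c was not called between these days in KO cells. The interaction, the KO effect of day 4 minus that of day 0, was -0.61 ± 0.15 (edgeR adjusted p = 0.0381).

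That interaction called 2 of the 68 genes, with 8.56% of all tested genes called, the other being Kdm4a at -0.55 ± 0.13 (edgeR adjusted p = 0.0411). Neither of the 2 interaction calls held: each was lost without KO day 0 replicate 1 or 2, KO day 4 replicate 2, or any of the 4 WT libraries of day 0 and day 4, with adjusted p of 0.0602 to 0.127 for Kdm5c and 0.0572 to 0.121 for Kdm4a. For all other genes of the set, a call in one genotype and not in the other is not shown to be a difference between genotypes. The other H3K4 demethylases of the family were not called between genotypes. Kdm5a fell between day 0 and day 4, by 0.41 ± 0.09 in KO cells (edgeR adjusted p = 0.00572) and by 0.60 ± 0.09 in WT cells (edgeR adjusted p = 0.000472), though limma on TPM did not call it in either. Kdm5d, which is Y-linked, had at least 26.7 CPM in every library. The FAD-dependent demethylase Kdm1a (Lsd1) stayed within 49.8 to 68.5 CPM in the KO libraries and within 54.4 to 76.5 CPM in the WT libraries.

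**Figure D4:**
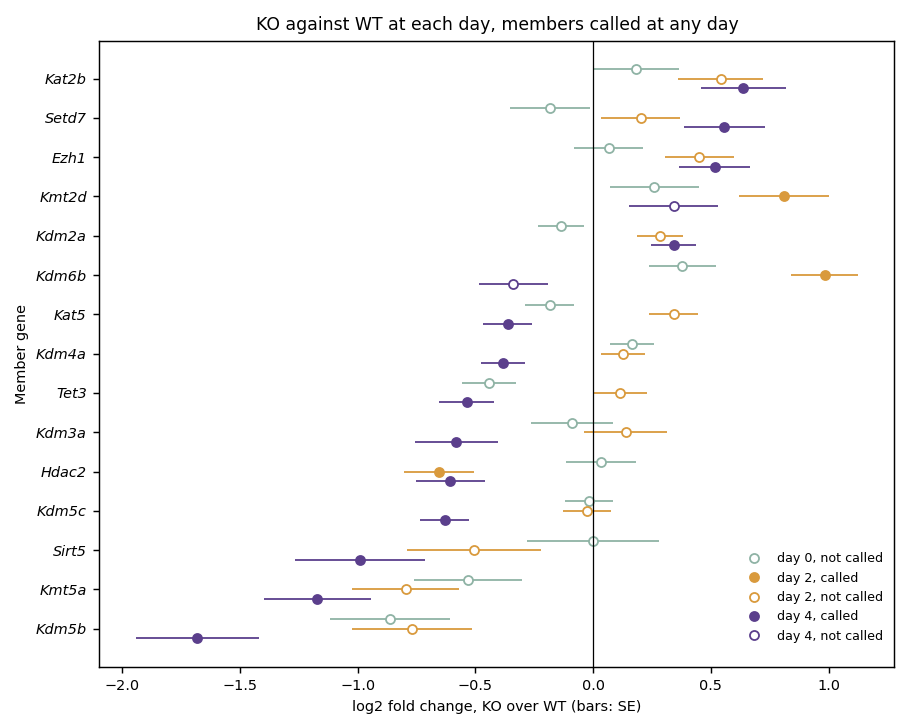
Log2 fold change of KO over WT with its standard error (bars) on day 0, day 2 and day 4 for the 15 genes called on any day. Filled points are called and open points are not called by edgeR. Kdm5b has the lowest value, -1.68 on day 4, and Kdm6b the highest, 0.98 on day 2.

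Among the Kmt2 genes, Kmt2d was called between genotypes on day 2. Kmt2d (Mll4), which methylates H3K4 at enhancers, had 190 and 242 CPM in KO cells on day 2, against 117 and 129 CPM in WT cells. The difference was 0.81 ± 0.19 (edgeR adjusted p = 0.0498), at the edge of the threshold. It was lost without KO day 2 replicate 1 (adjusted p = 0.0669), KO day 2 replicate 2 (0.307), WT day 2 replicate 1 (0.231) or WT day 2 replicate 2 (0.199), and limma on TPM did not call it (adjusted p = 0.0685). Nor was Kmt2d called by edgeR with DESeq2 size factors (adjusted p = 0.0607) or with a replicate block (0.0525). Kmt2e (Mll5) fell between day 0 and day 4, by 0.80 ± 0.12 in KO cells (edgeR adjusted p = 0.00102) and by 1.08 ± 0.12 in WT cells (edgeR adjusted p = 0.000114). These Kmt2e calls held with each library left out. Kmt2b and Setd1b were called in none of the 11 comparisons.

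Kmt5a, which monomethylates H4K20 and is needed for chromosome compaction and S phase, rose in both genotypes and was lower in KO cells on day 4. It had 32.0 and 27.9 CPM on day 0, 46.6 and 40.2 CPM on day 2, and 139 and 78.2 CPM on day 4 in KO cells. In WT cells it had 44.7 and 42.0 CPM on day 0, 74.0 and 76.9 CPM on day 2, and 247 and 244 CPM on day 4. The KO libraries were below the WT libraries on each day, and the KO libraries of day 4 lay far apart from each other. The difference between genotypes was -1.17 ± 0.23 on day 4 (edgeR adjusted p = 0.00728), and it held with each library left out. On day 2 it was -0.80 ± 0.23 (edgeR adjusted p = 0.0818) and on day 0 it was -0.53 ± 0.23 (edgeR adjusted p = 0.332). DESeq2's Wald test called day 2 as well (adjusted p = 0.0130), as did edgeR with the libraries of day 2 fitted alone (0.0295). The remaining alternatives did not call day 2.

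Kmt5a rose between day 0 and day 4 by 1.86 ± 0.23 in KO cells (edgeR adjusted p = 0.000429) and by 2.50 ± 0.24 in WT cells (edgeR adjusted p = 4.99e-05). The KO library of day 4 with the lower Kmt5a, replicate 2, was also the one with the lower osteoclast marker sum, at 2512 CPM against 5571 CPM in replicate 1. Over the osteoclast markers, none of 13 was called higher and 7 were called lower in KO cells on day 4. Of 12 macrophage markers, 9 were called higher and 1 lower in KO cells on day 4. The part of the course of differentiation in the lower Kmt5a, Kdm5b, Kdm5c and Hdac2 of KO cells was not tested. Kmt5b, which adds the further methyl groups to H4K20, fell by 0.76 ± 0.10 in KO cells (edgeR adjusted p = 0.000609) and by 0.81 ± 0.10 in WT cells (edgeR adjusted p = 0.000219) between day 0 and day 4.

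Setd7, an H3K4 monomethyltransferase that also acts on other proteins, had the largest fall among the Setd genes. In KO cells it had 163 and 178 CPM on day 0, 114 and 115 CPM on day 2 and 35.3 and 45.9 CPM on day 4. In WT cells it had 181 and 206 CPM on day 0, 99.8 and 99.1 CPM on day 2 and 23.3 and 32.0 CPM on day 4. The days did not overlap in either genotype. Setd7 fell between day 0 and day 4 by 2.07 ± 0.18 in KO cells (edgeR adjusted p = 7.99e-05) and by 2.81 ± 0.18 in WT cells (edgeR adjusted p = 9.63e-06). On day 4 it was higher in KO cells by 0.56 ± 0.17 (edgeR adjusted p = 0.0446), a call lost without KO day 4 replicate 2 (adjusted p = 0.253) or WT day 4 replicate 1 (0.233). Setd5 fell as well, by 1.25 ± 0.15 in KO cells (edgeR adjusted p = 0.000339) and by 0.94 ± 0.15 in WT cells (edgeR adjusted p = 0.000726). Setd2, which adds the last methyl group to H3K36, fell in WT cells by 0.66 ± 0.13 (edgeR adjusted p = 0.00216) and was not called in KO cells. Setd6, at 3.70 to 12.9 CPM over all libraries, rose by 1.03 ± 0.25 in KO cells (edgeR adjusted p = 0.0097) and by 1.67 ± 0.25 in WT cells (edgeR adjusted p = 0.000533). The KO call was lost without KO day 0 replicate 1 (adjusted p = 0.0626) or KO day 4 replicate 1 (0.0598).

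The JmjC demethylases of H3K9 and H3K36 gave 3 of the day 4 calls between genotypes. Kdm4a (Jmjd2a) had 76.9 and 80.8 CPM in KO cells on day 4, against 105 and 100 CPM in WT cells, with non-overlapping groups. The difference was -0.38 ± 0.09 (edgeR adjusted p = 0.0195), lost without WT day 4 replicate 1 (adjusted p = 0.103) or WT day 4 replicate 2 (0.0746). Kdm3a (Jmjd1a), an H3K9 demethylase, had 53.7 and 45.3 CPM in KO cells, against 71.5 and 76.7 CPM in WT cells. The difference was -0.58 ± 0.18 (edgeR adjusted p = 0.0415), lost without KO day 4 replicate 2 (adjusted p = 0.207), WT day 4 replicate 1 (0.107) or WT day 4 replicate 2 (0.178). Kdm2a, which binds CpG islands and removes H3K36 methylation, went the other way, with 195 and 207 CPM in KO cells against 165 and 152 CPM in WT cells. That difference was 0.34 ± 0.10 (edgeR adjusted p = 0.0322), a call lost without KO day 4 replicate 2, WT day 4 replicate 1 or WT day 4 replicate 2. It was also not called by edgeR without the low-count filter.

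Kdm2b, the relative of Kdm2a that recruits Polycomb complexes, fell between day 0 and day 4, by 0.81 ± 0.14 in KO cells (edgeR adjusted p = 0.00182) and by 1.24 ± 0.14 in WT cells (edgeR adjusted p = 0.000112). Kdm4b was lower on day 4 than on day 2 in KO cells, by -0.94 ± 0.17 (edgeR adjusted p = 0.00292), and its level did not differ detectably between genotypes on day 4, with 20.0 and 25.0 CPM in KO cells and 23.7 and 21.8 CPM in WT cells. Kdm8, a JmjC protein of the lowest abundance among the tested Kdm genes, rose in KO cells by 1.45 ± 0.36 (edgeR adjusted p = 0.0116), a call lost without KO day 0 replicate 2 (adjusted p = 0.0836). In WT cells it rose by 1.96 ± 0.37 (edgeR adjusted p = 0.00175).

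The study's title names Jun/Fos, the proteins of the AP-1 factor, whose usual site reads TGANTCA, a word that is the same on both strands. The 250 bases before the annotated gene start were read from RefSeq (GRCm38.p6) and matched by symbol for 58 of the 70 genes. Of these 58, 7 held TGANTCA (12.1%), against 5.83% of the 10150 tested genes with such a window and 7.82% of all 27025 genes in that table. A gene counts if any of its windows holds the word, and the 58 genes had 84 windows, while the 10150 tested genes had 12968. Counted by window, 8.33% of the 84 held it, against 4.78% of those of the tested genes. The 7 were Dnmt3aos, Hdac9, Kat2b, Kat8, Kdm3a, Kdm4a and Kdm5c. Kdm4d and Tet1, which were not tested, are among the 58. Of the 13 genes called between genotypes on day 4, 12 had a window and 4 of these held the word. Of the 55 tested and not called, 44 had a window and 3 of these held it. The share over all genes called on day 4 was not counted, and no difference between these shares was tested. The 4 are printed below from 5′ to 3′ on the gene's strand, chosen after their values were seen, with the AP-1 word in capitals.
Kdm5c, chrX:152232977-152233226, plus strand: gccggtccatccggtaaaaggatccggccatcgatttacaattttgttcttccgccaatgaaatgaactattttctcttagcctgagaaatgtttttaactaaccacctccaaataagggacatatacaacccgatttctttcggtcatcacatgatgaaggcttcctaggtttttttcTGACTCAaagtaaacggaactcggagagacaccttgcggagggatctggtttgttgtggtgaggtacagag
Kdm4a, chr4:118180044-118180293, minus strand: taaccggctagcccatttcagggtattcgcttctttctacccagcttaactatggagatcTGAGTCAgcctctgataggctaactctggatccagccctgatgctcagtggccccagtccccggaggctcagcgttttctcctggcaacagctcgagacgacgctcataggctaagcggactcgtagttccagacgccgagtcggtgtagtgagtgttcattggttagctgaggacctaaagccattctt
Kdm3a, chr6:71632687-71632936, minus strand: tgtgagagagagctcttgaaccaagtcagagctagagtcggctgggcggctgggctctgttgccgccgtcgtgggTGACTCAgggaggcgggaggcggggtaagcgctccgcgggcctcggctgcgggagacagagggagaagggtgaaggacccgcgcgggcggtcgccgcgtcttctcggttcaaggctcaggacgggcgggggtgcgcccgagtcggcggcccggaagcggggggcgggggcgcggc
Kat2b, chr17:53566721-53566970, plus strand: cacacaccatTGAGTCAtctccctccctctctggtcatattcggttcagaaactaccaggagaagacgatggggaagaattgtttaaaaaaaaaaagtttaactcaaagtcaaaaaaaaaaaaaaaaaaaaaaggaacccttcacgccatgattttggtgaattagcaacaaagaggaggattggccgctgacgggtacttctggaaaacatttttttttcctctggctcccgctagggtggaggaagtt

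Kdm3a had the word in 1 of 3 windows and Kat2b in 1 of 2, and the window that holds it is shown. The word begins 71 bases before the gene start in Kdm5c, 190 in Kdm4a, 175 in Kdm3a and 240 in Kat2b. Kdm5c, Kdm4a and Kdm3a were lower and Kat2b was higher in KO cells on day 4. The match is a description of these letters and not of binding. The words TTTCCCGC and TTTGGCGC of the E2F factors, on either strand, were found before 2 of the 58 genes (Kmt5c and Sirt4; 3.45%), against 2.89% of the tested genes.

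Among the acetyltransferases, 2 of 8 were called between genotypes on day 4, in opposite directions, a share close to the 25.6% of all tested genes. Kat2b (Pcaf), which acetylates H3K9, had 74.9 and 111 CPM in KO cells, against 55.8 and 63.9 CPM in WT cells. The groups did not overlap, and the difference was 0.64 ± 0.18 (edgeR adjusted p = 0.0326), lost without KO day 4 replicate 2 (adjusted p = 0.193), WT day 4 replicate 1 (0.167) or WT day 4 replicate 2 (0.0947). Kat5 (Tip60), the catalytic subunit of the NuA4 complex, had 25.0 and 28.8 CPM in KO cells, against 34.5 and 34.7 CPM in WT cells. The difference was -0.36 ± 0.10 (edgeR adjusted p = 0.0339), a call lost without KO day 4 replicate 1, WT day 4 replicate 1 or WT day 4 replicate 2. Limma on TPM did not call it (adjusted p = 0.0501), nor did edgeR without the low-count filter (adjusted p = 0.053).

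With time, Kat2a (Gcn5), the close relative of Kat2b in the SAGA complex, rose between day 0 and day 4 by 1.13 ± 0.15 in KO cells (edgeR adjusted p = 0.000604) and by 0.81 ± 0.15 in WT cells (edgeR adjusted p = 0.00181). Kat6b fell by 0.92 ± 0.13 in KO cells (edgeR adjusted p = 0.000804) and by 0.77 ± 0.13 in WT cells (edgeR adjusted p = 0.00107). Its paralogue Kat6a (Moz) and Kat7 (Hbo1) were called in none of the 11 comparisons, and Kat7 stayed between 76.3 and 99.7 CPM in all 12 libraries.

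Of the 11 zinc-dependent deacetylases, Hdac2 alone was called between genotypes, on day 2 and on day 4. It had 39.3 and 33.3 CPM in KO cells on day 0, against 34.7 and 36.2 CPM in WT cells. On day 2 it had 43.6 and 35.2 CPM in KO cells, against 59.2 and 64.7 CPM in WT cells, and on day 4 it had 82.4 and 68.8 CPM in KO cells, against 108 and 123 CPM in WT cells. The groups overlapped on day 0 and did not overlap on day 2 or day 4. The difference was -0.65 ± 0.15 on day 2 (edgeR adjusted p = 0.0465) and -0.61 ± 0.15 on day 4 (edgeR adjusted p = 0.0183). The call of day 2 was lost without KO day 2 replicate 1 (adjusted p = 0.0645), KO day 2 replicate 2 (0.293), WT day 2 replicate 1 (0.163) or WT day 2 replicate 2 (0.228). The call of day 4 was lost without KO day 4 replicate 2 (adjusted p = 0.107) or WT day 4 replicate 2 (0.125). With the libraries of day 2 fitted alone, Hdac2 was not called between genotypes (edgeR adjusted p = 0.0559). Hdac2 rose between day 0 and day 4, by 1.06 ± 0.15 in KO cells (edgeR adjusted p = 0.000711) and by 1.70 ± 0.15 in WT cells (edgeR adjusted p = 3.77e-05).

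The closely related Hdac1 was called in KO cells between day 0 and day 4, with a rise of 0.84 ± 0.14 (edgeR adjusted p = 0.00182), and was not called in WT cells by edgeR, though limma on TPM called it there. It had 65.2 and 72.5 CPM in KO cells on day 4, against 66.0 and 52.2 CPM in WT cells, and these groups overlapped. Hdac3, the catalytic subunit of nuclear corepressor complexes, stayed between 37.2 and 53.1 CPM in all 12 libraries and was called in no comparison. Among the class IIa deacetylases, which shuttle between nucleus and cytoplasm, Hdac7, Hdac5 and Hdac4 were each lower on day 4 than on day 2 in WT cells. Hdac7 fell between day 0 and day 4 by 1.75 ± 0.22 in KO cells (edgeR adjusted p = 0.000425) and by 1.63 ± 0.22 in WT cells (edgeR adjusted p = 0.000266). Hdac5 was lower on day 4 than on day 2, by -0.75 ± 0.13 in KO cells (edgeR adjusted p = 0.00195) and by -0.59 ± 0.13 in WT cells (edgeR adjusted p = 0.00465). Hdac4 was at 7.45 to 14.0 CPM over the 12 libraries. Between day 2 and day 4 it fell by 0.60 ± 0.20 in WT cells (edgeR adjusted p = 0.0337), a call lost without WT day 2 replicate 1, WT day 2 replicate 2 or WT day 4 replicate 2 (adjusted p of 0.0982 to 0.192) and not made by limma on TPM or without the low-count filter. In KO cells the difference of -0.47 ± 0.20 was not called (edgeR adjusted p = 0.0904).

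Hdac9 was higher in each KO library than in each WT library of the same day, at a low level. It had 6.41 and 7.02 CPM in KO cells on day 0, against 1.86 and 3.64 CPM in WT cells. On day 4 it had 3.43 and 3.66 CPM in KO cells, against 1.59 and 1.33 CPM in WT cells. The difference was 1.28 ± 0.42 on day 0 (edgeR adjusted p = 0.193), 1.09 ± 0.43 on day 2 (edgeR adjusted p = 0.162) and 1.27 ± 0.42 on day 4 (edgeR adjusted p = 0.0572), and none passed edgeR's test. DESeq2's Wald test called day 4 (adjusted p = 0.0257). Hdac11, the single class IV enzyme, fell between day 0 and day 4 by 2.34 ± 0.45 in KO cells (edgeR adjusted p = 0.00327) and by 3.38 ± 0.48 in WT cells (edgeR adjusted p = 0.000393), to 1.33 and 1.39 CPM in KO cells and 0.617 and 0.564 CPM in WT cells.

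Among the sirtuins, Sirt2, mostly cytoplasmic, and Sirt7, nucleolar, fell between day 0 and day 4. The fall of Sirt2 was 1.26 ± 0.19 in KO cells (edgeR adjusted p = 0.000918) and 1.44 ± 0.19 in WT cells (edgeR adjusted p = 0.000247). Sirt6, a nuclear H3K9 deacetylase, rose by 1.0 ± 0.20 in KO cells (edgeR adjusted p = 0.00421) and by 1.31 ± 0.20 in WT cells (edgeR adjusted p = 0.000611). Sirt1 rose in KO cells by 0.79 ± 0.20 (edgeR adjusted p = 0.0121) and in WT cells by 1.05 ± 0.20 (edgeR adjusted p = 0.00189), the KO call being lost without KO day 0 replicate 1 (adjusted p = 0.0818) or KO day 4 replicate 1 (0.0576).

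Between genotypes Sirt5, a mitochondrial desuccinylase, was the only sirtuin called. It had 4.66 and 4.33 CPM in KO cells on day 4, against 7.97 and 9.89 CPM in WT cells. The difference was -0.99 ± 0.28 (edgeR adjusted p = 0.0314), and it was lost without KO day 4 replicate 1 (adjusted p = 0.0600), KO day 4 replicate 2 (0.147), WT day 4 replicate 1 (0.0728) or WT day 4 replicate 2 (0.186). The mitochondrial deacetylase Sirt3 lay just outside the threshold, with 8.19 and 4.88 CPM in KO cells on day 4, against 12.2 and 11.7 CPM in WT cells. That difference was -0.87 ± 0.28 (edgeR adjusted p = 0.0515). DESeq2's Wald test called it (adjusted p = 0.0250), as did edgeR with DESeq2 size factors (0.0485) or a stricter filter on low counts (0.0413). Limma on TPM did not call it, nor did edgeR without a filter, with a replicate block or on the libraries of day 4 alone.

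The DNA methyltransferases Dnmt3a and Dnmt1 rose to their highest levels on day 4. Dnmt3a, the de novo enzyme, had 72.2 and 74.6 CPM on day 0, 139 and 142 CPM on day 2 and 404 and 436 CPM on day 4 in KO cells. In WT cells it had 130 and 90.6 CPM on day 0, 200 and 211 CPM on day 2 and 476 and 607 CPM on day 4. The KO libraries were below the WT libraries on each day, and the days did not overlap in either genotype. Between day 0 and day 4 it rose by 2.52 ± 0.18 in KO cells (edgeR adjusted p = 4e-05) and by 2.30 ± 0.18 in WT cells (edgeR adjusted p = 2.3e-05). The differences between genotypes were -0.59 ± 0.18 on day 0 (edgeR adjusted p = 0.161), -0.55 ± 0.17 on day 2 (edgeR adjusted p = 0.102) and -0.37 ± 0.17 on day 4 (edgeR adjusted p = 0.157), none of which passed. DESeq2's Wald test called day 0 (adjusted p = 0.0412) and day 2 (adjusted p = 0.0354). Day 2 was also called by limma on TPM (adjusted p = 0.0307) and by edgeR with the libraries of day 2 fitted alone (0.0333). The remaining alternatives called neither day. The counts of the antisense Dnmt3aos were 0 and 0 in KO cells on day 0 and 18 and 49 in KO cells on day 4, and without a stated strand setting its reads and those of Dnmt3a cannot be told apart.

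Dnmt1 had 337 and 302 CPM in KO cells on day 4, against 284 and 240 CPM in WT cells, and 112 and 130 CPM in KO cells on day 0, against 115 and 126 CPM in WT cells. The rise was 1.40 ± 0.13 in KO cells (edgeR adjusted p = 9.82e-05) and 1.12 ± 0.13 in WT cells (edgeR adjusted p = 0.000109), and the 2 genotypes differed on day 4 by 0.29 ± 0.12 without passing the test (edgeR adjusted p = 0.123). Dnmt3b, the second de novo enzyme, was near the filter, with 2.41 and 2.16 CPM in KO cells on day 4, against 4.78 and 4.15 CPM in WT cells, a difference of -0.97 ± 0.36 that was not called (edgeR adjusted p = 0.0827). Of the dioxygenases that oxidise methylcytosine, Tet3 had 96.3 and 89.5 CPM in KO cells on day 4, against 125 and 145 CPM in WT cells. The difference was -0.54 ± 0.12 (edgeR adjusted p = 0.0114), lost without KO day 4 replicate 2 (adjusted p = 0.0586) or WT day 4 replicate 2 (0.0927). On day 0 Tet3 had 130 and 138 CPM in KO cells, against 194 and 170 CPM in WT cells, at -0.44 ± 0.12 (edgeR adjusted p = 0.111). Tet2 was within 35.1 to 73.9 CPM over the 12 libraries and was not called between genotypes.

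Genes that work with these enzymes were counted from lists of partners, which describe and do not test. Of 20 tested COMPASS and Polycomb partners, 14 were called higher and 2 lower on day 4 than on day 0 in KO cells, and 12 higher and 2 lower in WT cells, while 23.3% and 29.1% of all tested genes were called higher. Their median change was 0.69 in KO cells and 0.42 in WT cells, beside -0.06 and -0.04 over all tested genes. Jarid2, a Polycomb subunit, rose by 1.96 ± 0.16 in KO cells and by 2.09 ± 0.16 in WT cells (edgeR adjusted p = 5.66e-05 in KO cells and 1.80e-05 in WT cells), while Phf1, another, fell by 2.01 ± 0.20 in KO cells and fell by 2.84 ± 0.20 in WT cells (edgeR adjusted p = 0.000137 in KO cells and 1.48e-05 in WT cells). Between genotypes on day 4, 2 of the 20 were called, Rbbp4 and Phf1, both higher in KO cells, beside 14.5% of all tested genes.

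Of 21 tested lysine methyltransferases under other names, 2 were higher and 2 lower in KO cells on day 4, below the shares of all tested genes (14.5% higher and 11.1% lower). Setdb2, of the H3K9 family, had 33.5 and 59.7 CPM in KO cells, against 15.0 and 12.8 CPM in WT cells, a difference of 1.75 ± 0.33 (edgeR adjusted p = 0.00704). Dot1l, the H3K79 methyltransferase, had 214 and 108 CPM in KO cells, against 295 and 357 CPM in WT cells, a difference of -1.02 ± 0.28 (edgeR adjusted p = 0.0310). Dot1l rose between day 0 and day 4 in both genotypes, by 2.85 ± 0.30 in KO cells (edgeR adjusted p = 0.000218) and by 3.93 ± 0.32 in WT cells (edgeR adjusted p = 2.68e-05). Ehmt2 (G9a) was the other gene called higher, by 0.61 ± 0.17 (edgeR adjusted p = 0.0322), and Mecom the other called lower, with 0 and 0 counts in KO cells against 14 and 10 counts in WT cells.

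On day 4, 2 of 13 other acetyltransferases were higher in KO cells (Ncoa3 and Ep300) and 2 were lower (Naa50 and Clock), close to the shares of all tested genes (14.5% higher and 11.1% lower). Of 16 DNA methylation partners, 2 were higher (Mbd1 and Apobec1) and 2 lower (Uhrf2 and Zbtb38), again close to those shares. Of 10 other demethylases, Uty, the Y-linked relative of Kdm6a, was the only one called, higher in KO cells by 0.58 ± 0.17 (edgeR adjusted p = 0.0346). None of 9 arginine methyltransferases or deiminases was called by edgeR between genotypes on day 4. With time, 4 of those 9 were called higher on day 4 than on day 0 in KO cells and 5 in WT cells, with none lower, beside 23.3% and 29.1% of all tested genes called higher. Prmt5, the main symmetric arginine dimethyltransferase, rose by 1.38 ± 0.17 in KO cells (edgeR adjusted p = 0.000369) and by 1.61 ± 0.17 in WT cells (edgeR adjusted p = 7.88e-05).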

How the data were processed

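Total RNA of 12 libraries was analysed. Accessibility and factor-binding samples of the series were not analysed here. Per the submitters' processing notes, tools listed for the series include STAR 2.7.3a, RSEM 1.3.1 and DESeq2, with builds mm9 and mm10 and no role given; strand setting and annotation were not given in the sources used here. The authors deposited 1 table of expected counts per gene (rounded to whole numbers here) and 1 table of TPM. CPM were computed here with TMM factors. edgeR 4.0.16 (R 4.3.3; filterByExpr with a minimum count of 10; 1 quasi-likelihood fit over the 6 groups) tested 11 contrasts, with Benjamini-Hochberg adjustment over 12774 genes and a threshold of 0.05. The fit's common biological coefficient of variation was 0.261. Its prior had 2.66 degrees of freedom. The same scripts were tested on simulated counts. Alternatives were DESeq2 size factors, DESeq2 1.42.0's Wald test, limma 3.58.1 on log2(TPM + 1), no filter, a filter of 5 CPM in 2 libraries, the libraries of a comparison fitted alone, a replicate block (over all libraries or within each genotype) and each library left out.

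The members, gene lists and tests were chosen with earlier results of these data known. Genes to name were, for each comparison, up to 8 called genes in each direction with a mean of at least 5 CPM and groups that do not overlap. To these came a fixed set of enzymes and up to 4 genes for each partner list, with the rest in counts. Not every such gene is named for each comparison, and Kmt2a, Hdac10 and Kdm3b are left in the counts. Genes outside this rule were chosen after their values were seen. They include Kdm8 and Hdac11 at low level, and Kat7, Kdm1a and Hdac1 at higher levels. The labels tie no replicate number to a shared source, so the fit has no block. However, the log2 difference of replicate 1 minus replicate 2, over tested genes, correlated between days of a genotype (0.114 to 0.526). It also correlated between genotypes, at -0.483 for KO day 2 with WT day 0. Of the marker lists, B cell markers summed to at most 15.4 CPM, mast cell and basophil markers to at most 7.52 CPM, and neutrophil markers to at most 1.44 CPM in 11 libraries and 24.0 CPM in WT day 0 replicate 1. The mitochondrial genome list had 0 of 9 genes in the table. Among macrophage markers, Lyz2 had 36.4 to 89.9 CPM in KO cells, against 736 to 41312 CPM in WT cells. The Y-linked Kdm5d, Ddx3y and Uty were present in all 12 libraries. The list of deacetylase complex partners is not reported here.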

Additional observations from a re-analysis of the deposited data

Results flagged for a closer look

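The change of the KO effect between day 0 and day 4 differed from 0 by an interaction test for 2 enzymes. For Kdm5c it was -0.61 on the log2 scale, with KO over WT at -0.63 on day 4 and -0.02 on day 0. For Kdm4a it was -0.55, with KO over WT at -0.38 on day 4 and 0.17 on day 0. Both interactions passed edgeR's adjusted threshold with all libraries and missed it without any one of 7 of the 8 libraries.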

How the results depend on the processing

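Every one of the 191 calls of a gene of the set in a comparison kept its sign under each alternative that tested it. Signs were not checked under the block within each genotype or the crossed block. DESeq2's Wald test called 3 for KO against WT on day 0, 7 on day 2, 4 for KO day 2 against KO day 0 and 6 for the day 4 interaction. Limma on log2(TPM + 1) called 5 for KO against WT on day 2 and 1 for that interaction. With the libraries of a comparison fitted alone, 0 were called for KO against WT on day 4 and 0 for the interaction. That setting called 4 for WT day 2 against WT day 0, 26 for KO day 4 against KO day 0 and 18 for KO day 4 against KO day 2. For WT day 4 against WT day 2 it called 46, against 39 in the fit of all libraries. The interaction count was 1 with DESeq2 size factors, 0 with no low-count filter and 4 with the stricter filter. Why these counts moved was not tested.

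With 1 library left out, called enzymes numbered 0 to 1 for KO against WT on day 2, 4 to 15 on day 4, 1 to 11 for WT day 2 against WT day 0, 35 to 40 for WT day 4 against WT day 0, 25 to 30 for WT day 4 against WT day 2, 1 in each case for KO day 2 against KO day 0, 28 to 40 for KO day 4 against KO day 0, 29 to 38 for KO day 4 against KO day 2 and 0 to 10 for the interaction on day 4. A left-out library leaves 1 sample in a group, which is then assumed to vary like the others. The 3 genotype calls that held with each library left out were lost with the 4 libraries of day 4 fitted alone.

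With a replicate block, 2 enzymes were called for KO against WT on day 2 and 13 on day 4, 12 and 38 for WT day 2 and day 4 against WT day 0, 39 for WT day 4 against WT day 2, 2 and 39 for KO day 2 and day 4 against KO day 0, 34 for KO day 4 against KO day 2, and 0 on day 0 and 0 and 2 for the interactions of day 2 and day 4. The log2 difference of replicate 1 minus replicate 2 was taken for each tested gene and group. Between KO and WT cells, these differences correlated at -0.317, -0.0557 and -0.06 on days 0, 2 and 4. Within a genotype, the differences correlated across days at 0.39 to 0.526 in KO cells and 0.114 to 0.268 in WT cells. Across genotype and day, KO day 2 and KO day 4 correlated with WT day 0 at -0.483 and -0.417. Correlations of that size thus also occurred between genotypes. A tie between same-numbered libraries was not tested, and the labels do not state one. A block within each genotype, chosen after seeing the data, called 3, 41 and 36 for KO day 2 and day 4 against day 0 and day 4 against day 2, and 17, 45 and 41 in WT cells. Crossing the numbers on day 0, also chosen after seeing the data, called 0.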
